A study of Homo sapiens with 6 samples.

Results

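Of the 58219 gene rows of the deposited table, 98 were taken by their symbols as subunits of the oxidative phosphorylation machinery. They were chosen by name alone: MT-ND, MT-CO, MT-ATP and MT-CYB for the 13 mRNAs of mitochondrial DNA (mtDNA), and NDUFA, NDUFB, NDUFC, NDUFS, NDUFV, SDHA to SDHD, UQCR, COX4 to COX8 and ATP5 symbols for 85 nuclear rows. The patterns met 152 rows, of which 54 were left out as pseudogenes because their symbols end in P and a number. MT-ATP6 and MT-ATP8 end so too and were kept as genes of mtDNA. The patterns use no measured value, though they were set with earlier results of these data known. The patterns do not reach COX4I1, COX4I2, COX7A2L, NDUFAB1, NDUFA4L2, CYC1 and CYCS, which are counted separately. They do reach ATP5S and ATP5SL, now named DMAC2L and DMAC2, which are not structural subunits. Also among the 98 are ATP5J2LP, now named ATP5MFP1 and with 0 coding bases, and the readthrough gene ATP5J2-PTCD1. Neither was tested.

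The cells were IMR90, an established line of normal human diploid fibroblasts from lung, and poly(A) RNA was sequenced. They carry ER-RAS, in which RAS is joined to the hormone-binding domain of the oestrogen receptor, so that 4-hydroxytamoxifen (4OHT) switches it on. All 6 libraries came from ER-RAS cells given 100 nM 4OHT. Replicates A, B and C received it for 30 h and are called uncommitted controls in the labels, and replicates A, B and C of the other group received it for 72 h and are called committed. The sample titles give 1.5 days for the shorter time and 3 days for the longer, and the hours of the treatment protocol and the table's columns are used here. There were no untreated cells and no uncommitted cells at 72 h, so commitment and time under 4OHT cannot be told apart. What drives ER-RAS, and whether the cells are a clone, was not given in the sources used here. Separate cultures are not stated either, so the p-values measure only how these samples vary, and that variation may be technical.

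Oxidative phosphorylation is carried out by protein complexes of the inner mitochondrial membrane. Complexes I (NADH dehydrogenase) and II (succinate dehydrogenase) pass electrons to ubiquinone, complex III hands them to cytochrome c and complex IV reduces oxygen with them. Complexes I, III and IV pump protons, and complex V, the ATP synthase, uses the returning protons to make ATP. Complex II is built of nuclear-encoded proteins alone, whereas the other complexes also need subunits encoded by mtDNA, which is transcribed inside the organelle as long precursors from a heavy-strand and a light-strand promoter.

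The libraries held 13221152 to 15703544 reads assigned to genes, and any 2 libraries of a group differed beyond sampling noise (chi-square of 3.34 to 16.3 per degree of freedom). Both letter C libraries stood apart from A and B of their group in this measure (11.6 to 16.3, against 3.34 and 4.16 for A with B). Counts and calls were therefore repeated without both letter C libraries. Of 10 fibroblast markers, all passed the filter on low values, and 7 of the 10 fell, where 25.0% of all tested genes did. Their summed normalised counts ran from 269800 to 286700 at 30 h and from 111600 to 130600 at 72 h. Among markers of other cells, SFTPC, KRT5, KRT14, CDH5 and CD3E had 0 reads in each library, CDH1 was at 0 in 5 of 6 libraries, and EPCAM held 3.90 to 10.2 normalised counts. KRT19 held 43.7 and 34.9 in the letter B libraries and at most 4.87 in the others. MUC1 alone of the 7 epithelial markers passed the filter, at 14.2 ± 1.26 at 30 h and 7.50 ± 0.615 at 72 h, and fell. The 7 together held 24.3 to 67.1 normalised counts per library at 30 h, and at 72 h this sum was 12.6 to 48.8. No leukocyte marker of 6 passed the filter. TEK alone of the 5 endothelial markers passed the filter, and it fell. It was at 767 ± 132 normalised counts at 30 h and 420 ± 42.4 at 72 h (SD, n = 3 libraries in each group). The part of cell composition in the results was not tested, and in bulk RNA fewer cells of a type and less RNA per cell cannot be told apart.

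Transcripts of the 13 mtDNA genes took a larger share of the reads at 72 h than at 30 h, while the nuclear members kept a nearly equal share. The mtDNA mRNAs made up 2.64%, 2.76% and 2.92% of the reads in replicates A, B and C at 30 h. At 72 h they made up 3.47%, 3.24% and 3.12%. The groups did not overlap. Nuclear members made up 0.589%, 0.588% and 0.557% at 30 h and 0.555%, 0.581% and 0.549% at 72 h, with overlapping groups. Reads from mtDNA mRNAs per read from nuclear members numbered 4.48, 4.69 and 5.25 at 30 h and 6.24, 5.57 and 5.68 at 72 h, so each library of 72 h lay above each of 30 h. Summed normalised counts, which are reads divided by the authors' size factor of the library, went from 383936 ± 22648 to 451951 ± 23820 for the mtDNA members (SD, n = 3 in each group). For the nuclear members they went from 80022 ± 2079 to 77526 ± 1812, a ratio of 0.969.

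**Figure D1:**
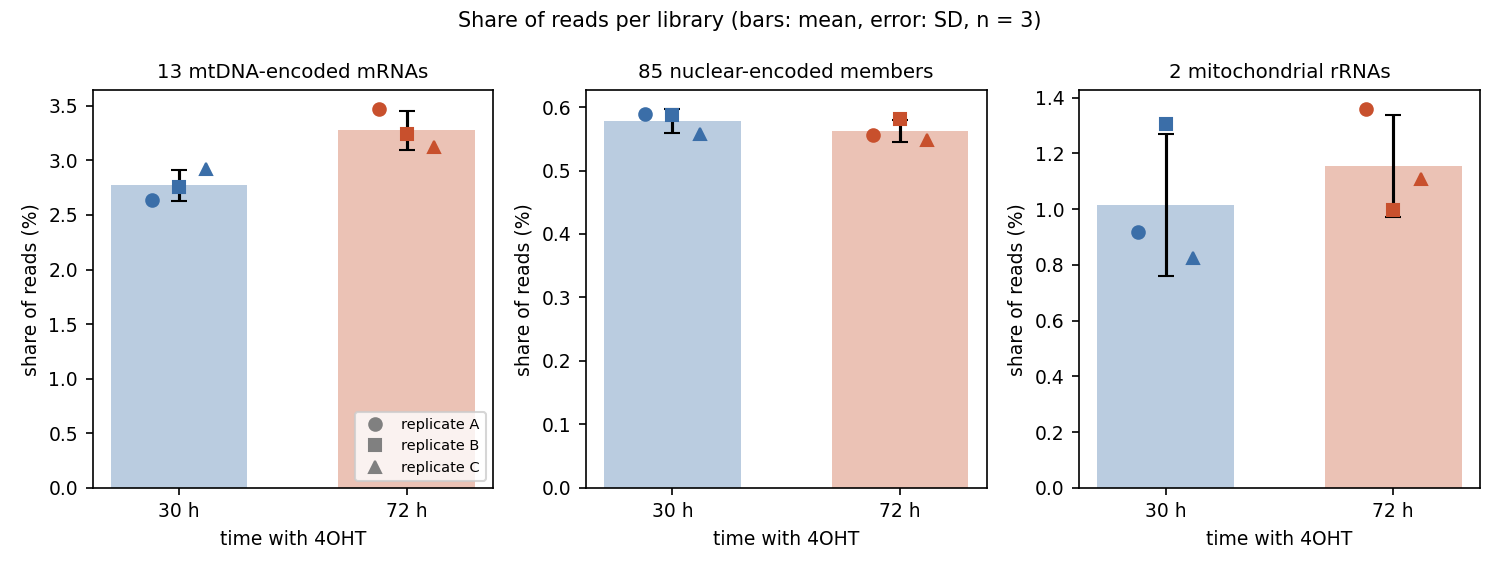
Share of each library's reads (percent, axes from 0) taken by the 13 mtDNA-encoded mRNAs, the 85 nuclear members and the 2 mitochondrial rRNAs at 30 h and 72 h of 4OHT. Bars are means, error bars SD and points the 3 libraries of each group. The mRNA share ran from 2.64% to 2.92% in the libraries of 30 h and from 3.12% to 3.47% in those of 72 h, and the other panels overlap between groups.

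Of 13315 genes tested across the table with limma, 48.6% passed a Benjamini-Hochberg adjusted p of 0.05, 23.6% as rises and 25.0% as falls at 72 h. The share was 48.8% with edgeR (23.7% and 25.0%) and 32.3% of 17065 genes (15.4% and 16.9%) in the authors' deposited table. All 13 mtDNA members passed the filter (3 libraries or more with 10 normalised counts or more), as did 76 of the 85 nuclear ones. Of the 13 mtDNA members 9 rose, 0 fell and 4 did not pass (8 and 0 in edgeR, 9 and 0 in the authors' deposited table), with a median log2 fold change of 0.25, against 0.01 for all tested genes. Of the 76 nuclear members 3 rose, 14 fell and 59 did not pass, with a median of -0.05 (3 and 14 in edgeR, 3 and 10 in the authors' deposited table). All libraries of 72 h lay above those of 30 h for 9 mtDNA and 10 nuclear members and for 29.3% of all tested genes. They lay below for 0 and 17 members and for 29.9% of all tested genes. The share of nuclear members called, 22.4%, lay under that of all genes, and the share of mtDNA members called, 69.2%, above it. Of the 7 related genes that the name patterns miss, 5 were tested. Among these 2 rose (40%, against 23.6% of all genes), COX4I1 and CYCS, and 0 fell, with a median of 0.10. CYCS is cytochrome c, an electron carrier and not a structural subunit. The calls of COX4I1 and CYCS were each lost in some alternatives, that of CYCS also in DESeq2 and the authors' deposited table. With values scaled to the reads of nuclear genes, 5 nuclear members rose and 11 fell, and with quantile normalisation 7 rose and 11 fell. Without both letter C libraries the counts were 11 rises among the mtDNA members and 7 rises and 15 falls among the nuclear ones. The rises among mtDNA members numbered 5 without 30 h replicate A, 30 h replicate B or 72 h replicate A, each left out in turn, and 5 with quantile normalisation. The falls among nuclear members numbered 9 without 30 h or 72 h replicate A, and the rises 2 to 5 with a library left out (5 without 30 h replicate C, 2 without 30 h replicate A).

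Changes of the nuclear members were small as well as few. The 95% interval of the fold change lay within 1.5-fold in either direction for 71 of 76 nuclear members, or 93.4%, against 51.1% of all tested genes. The nuclear members were also more abundant, at a median of 713 normalised counts at 30 h against 339 for all tested genes. The exceptions were NDUFA12 and NDUFS7, which fell, and NDUFV2, NDUFA13 and COX7A1, which were counted at under 30 normalised counts in each library. Among the mtDNA members the intervals of MT-ND2 and MT-ND3 passed 1.5-fold. In the plot of all tested members the mtDNA group lies mostly above 0 and the nuclear complexes spread to both sides of it.

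**Figure D2:**
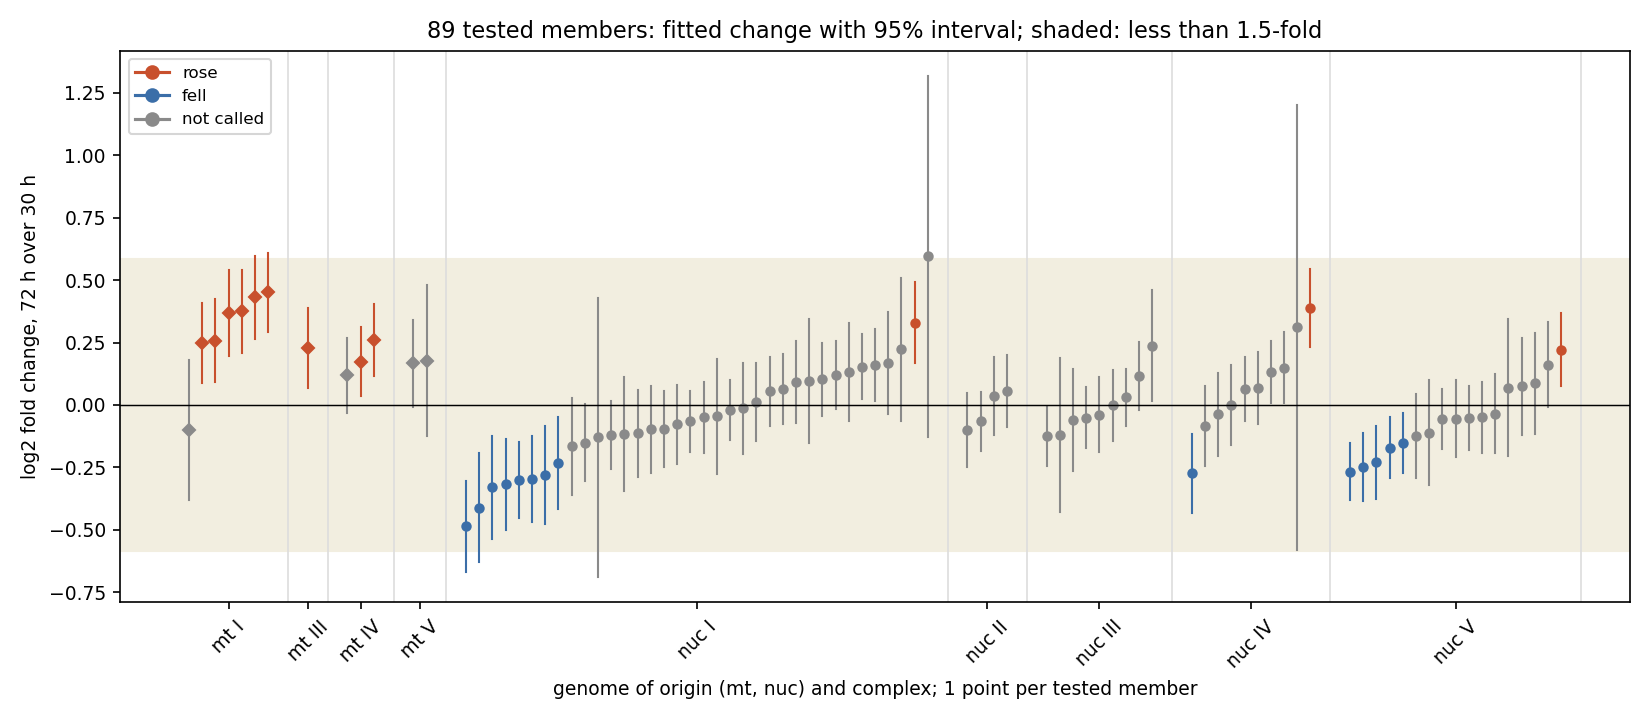
Fitted log2 fold change of 72 h over 30 h with its 95% interval for each of the 89 tested members (vertical axis), ordered by genome of origin and complex (horizontal axis). Points past a Benjamini-Hochberg adjusted p of 0.05 in limma are coloured by direction, and the shaded band covers changes under 1.5-fold. The mtDNA members range from -0.10 to 0.45 and the nuclear members from -0.49 to 0.60.

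Before the values of the mtDNA mRNAs, the ends of 5 of their genes are shown, because the genes differ in whether they hold a whole stop codon. Mitochondrial mRNAs are cut out of their precursor, and where the cut leaves only the first base or bases of a stop codon, the poly(A) tail completes it. The letters are the last 24 bases of each annotated gene, 5′ to 3′, from the GENCODE 29 transcripts (GRCh38). Capitals mark the last codon, taken as the stop codon, or the part of it that the gene holds. The first pair are the largest rises, the next pair did not pass the test, and MT-ND6 is the only light-strand member.
MT-ND3 (chrM:10381-10404, plus strand): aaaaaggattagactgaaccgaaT
MT-ND2 (chrM:5488-5511, plus strand): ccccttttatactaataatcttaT
MT-CO2 (chrM:8246-8269, plus strand): atagggcccgtatttaccctaTAG
MT-ATP6 (chrM:9184-9207, plus strand): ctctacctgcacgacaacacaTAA
MT-ND6 (chrM:14149-14172, minus strand): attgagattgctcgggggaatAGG
In this annotation 6 of the 13 genes end in an incomplete stop codon (MT-ND1, MT-ND2, MT-ND3, MT-ND4, MT-CO3 and MT-CYB), and all 6 rose. The other 7 were counted as ending in a whole stop codon because their length is a whole number of codons. Of these 7, 3 rose (MT-ND4L, MT-ND5 and MT-CO1). MT-CO1 ends in AGA and MT-ND6 in AGG, and whether these letters serve as stop codons was not checked. The ends of MT-ND4L and MT-ATP8 lie inside mRNAs shared with MT-ND4 and MT-ATP6, so an annotated end need not be the end of an mRNA. The last annotated base of MT-ATP6, chrM:9207, is also the first of MT-CO3. Whether the mRNA of MT-ATP6, which did not pass, holds a whole stop codon is therefore uncertain, and so is the split into 6 and 7 genes. This is a description of 13 genes that share precursors, with no test.

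The heavy-strand complex I mRNAs, which encode the core of the proton-pumping membrane arm, rose in all 6 cases (MT-ND1, MT-ND2, MT-ND3, MT-ND4, MT-ND4L and MT-ND5), and their median change was 0.37 on the log2 scale. MT-ND3, a small membrane subunit (chrM:10059-10404), was at 5529, 5748 and 6312 normalised counts in A, B and C at 30 h and at 8707, 7575 and 7763 at 72 h. The lowest library of 72 h lay above the highest of 30 h, and the log2 fold change was 0.45 ± 0.07 (SE; limma, Benjamini-Hochberg adjusted p = 0.000651). MT-ND2 (chrM:4470-5511) was at 16409, 17510 and 19216 at 30 h and at 25575, 23596 and 22434 at 72 h. It too was higher in each library of 72 h, by 0.43 ± 0.07 (adjusted p = 0.00105 by the same limma fit). MT-ND1, which lies closest to the rRNA genes and lines the quinone channel, went from 18115 ± 1344 to 23484 ± 1691. MT-ND5, the distal antiporter-like subunit, went from 26965 ± 2492 to 34740 ± 1859. Both rose by 0.37 (SE of 0.07 and 0.08), with limma adjusted p = 0.00238 for MT-ND1 and 0.00308 for MT-ND5. These 4 calls held in each of the 19 alternative settings.

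MT-ND4 and MT-ND4L share 7 bases of a bicistronic mRNA and rose by nearly equal amounts, 0.25 ± 0.07 and 0.26 ± 0.07 on the log2 scale. MT-ND4 was at 65182, 68064 and 74609 normalised counts at 30 h and at 87154, 81045 and 78400 at 72 h. MT-ND4L was at 6148, 6307 and 7014 and then at 8380, 7801 and 7112, so its highest library of 30 h and its lowest of 72 h, both of letter C, were close to each other. The limma adjusted p was 0.0164 for MT-ND4 and 0.0163 for MT-ND4L. Both calls were lost without 30 h replicate A, 30 h replicate B or 72 h replicate A, each left out in turn, and that of MT-ND4 also with quantile normalisation and without limma's robust option. Over the 19 alternatives the adjusted p ran from 1.51e-12 to 0.0846 for MT-ND4 and from 2.59e-06 to 0.0800 for MT-ND4L.

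MT-ND6, the complex I subunit encoded on the light strand (chrM:14149-14673), did not share the rise. It was at 2095, 1979 and 2233 normalised counts at 30 h and at 2375, 1865 and 1692 at 72 h, with overlapping groups and a log2 fold change of -0.10 ± 0.12 (limma adjusted p = 0.525). Without 72 h replicate A, its highest library, the change was -0.24 and passed the test. Its share of all mtDNA mRNA reads lay between 0.518% and 0.578% at 30 h and between 0.390% and 0.496% at 72 h. The share of the heavy-strand MT-ND mRNAs was 37.1% to 38.3% in the earlier group and 39.7% to 40.0% in the later one. Whether the counting used strand was not given in the sources used here, so reads of MT-ND6 and of RNA antisense to it cannot be told apart. How fully the poly(A) selection caught MT-ND6 next to the heavy-strand mRNAs was not tested, so their counts may not compare their levels in the cells.

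In complex III, MT-CYB, which encodes cytochrome b with its ubiquinone sites, was at 24338, 25628 and 28453 normalised counts at 30 h and at 32418, 29370 and 29862 at 72 h. Each library of 72 h lay above those of 30 h, and the rise was 0.23 ± 0.07 (SE; limma adjusted p = 0.0250). Leaving out 30 h replicate A, 30 h replicate B or 72 h replicate A ended the call, as did quantile normalisation (adjusted p of 7.5e-08 to 0.114 over the alternatives).

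The complex IV mRNAs encode its catalytic core. MT-CO3 (chrM:9207-9990) was at 44417, 46433 and 48682 normalised counts at 30 h and at 58607, 55538 and 52949 at 72 h, a rise of 0.26 ± 0.06 (SE; limma adjusted p = 0.00754) that was lost with quantile normalisation only. MT-CO1, the subunit with the oxygen-reducing site, was at 75343, 80130 and 83017 and then at 91374, 87956 and 89487. Its groups did not overlap either, and the rise was 0.17 ± 0.06 (adjusted p = 0.0391 in limma). That call was lost in 9 of the 19 alternatives, edgeR and 5 of the 6 settings that leave out a library among them, with adjusted p of 7.08e-07 to 0.165. MT-CO2, which takes the electrons from cytochrome c, was at 48612, 51225 and 51770 and then at 59030, 54708 and 51054. Replicate C of 72 h lay below replicates B and C of 30 h, and the difference of 0.12 ± 0.07 did not pass (limma adjusted p = 0.177). MT-CO2 passed with no filter and without both letter C libraries (0.19), while quantile normalisation gave -0.14, not past the test. Together the MT-CO mRNAs took 45.03% to 46.5% of mtDNA mRNA reads at 30 h and 43.7% to 44.7% at 72 h.

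The complex V mRNAs MT-ATP6, the proton channel, and MT-ATP8, a small membrane subunit, are read from 1 transcript. The start of the first lies within the end of the second. Those 46 shared bases, with the start codon of MT-ATP6 in capitals, are shown because reads in them can be given to either gene:
MT-ATP8 and MT-ATP6 (chrM:8527-8572, plus strand): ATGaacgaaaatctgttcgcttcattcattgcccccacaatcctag
MT-ATP6 was at 27997, 29368 and 32211 normalised counts at 30 h and at 36775, 32738 and 31141 at 72 h, where replicate C lay below replicate C of 30 h. MT-ATP8 was at 4897, 4714 and 4976 and then at 6771, 5279 and 4647, with both the highest and the lowest value at 72 h. Neither passed the test: the differences were 0.17 ± 0.08 for MT-ATP6 (limma adjusted p = 0.104) and 0.18 ± 0.13 for MT-ATP8 (adjusted p = 0.296). Both passed without 72 h replicate C, and MT-ATP6 also without 30 h replicate C, without both and with no filter.

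As a description of the spread among heavy-strand mRNAs, the largest rises can be set against smaller ones. MT-ND3 per MT-CO2 count was 0.114, 0.112 and 0.122 in A, B and C at 30 h and 0.148, 0.139 and 0.152 at 72 h. MT-ND2 per MT-CO1 count was 0.218, 0.219 and 0.232 and then 0.280, 0.268 and 0.251. The pairs were chosen for their different changes after the values were seen, so that the groups do not overlap follows from the choice and is no test.

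**Figure D3:**
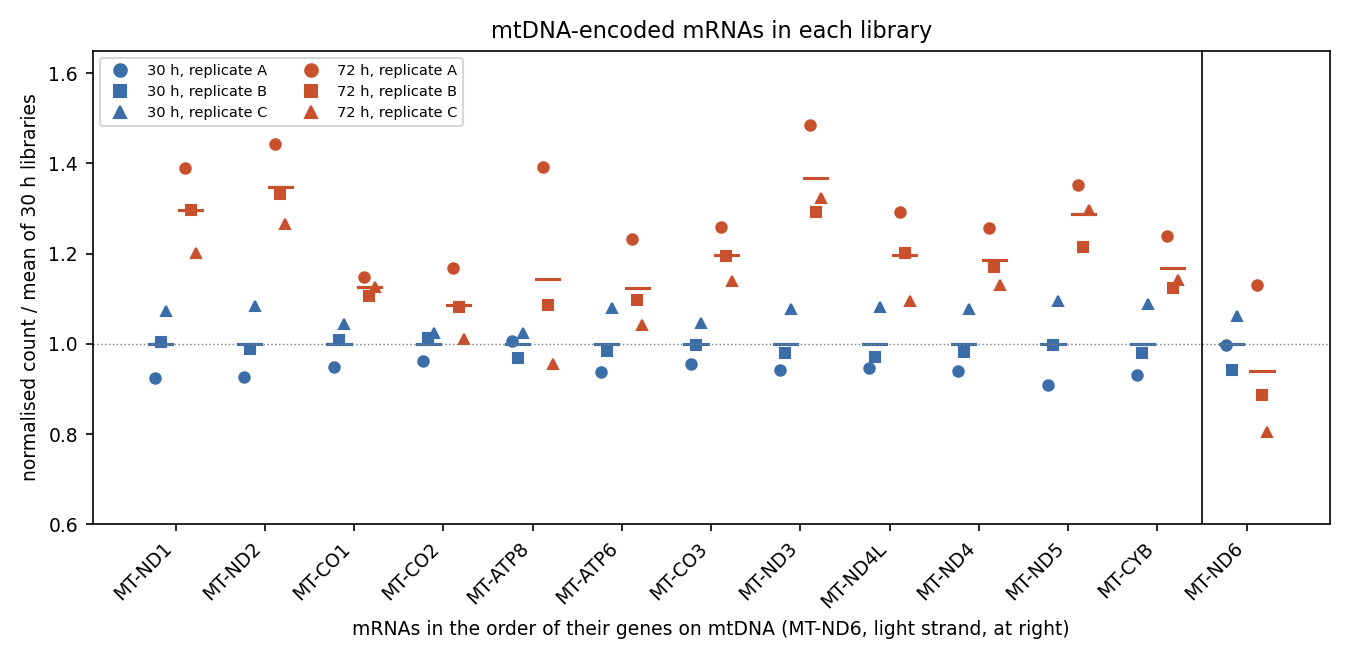
Normalised count of each mtDNA-encoded mRNA in each library, divided by that gene's mean over the 3 libraries of 30 h (vertical axis), in the order of the genes on mtDNA (horizontal axis), with MT-ND6 at the right. Short lines are group means and symbols the replicate letters. The 9 mRNAs that rose have all 72 h points above all 30 h points, and MT-CO2, MT-ATP8, MT-ATP6 and MT-ND6 overlap.

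Mitochondrial rRNA, which the poly(A) selection catches only in part, showed a wide spread. MT-RNR2 was at 102790, 149330 and 97222 normalised counts at 30 h and at 158110, 115990 and 130350 at 72 h. MT-RNR1 was at 23472, 31528 and 17501 and then at 29383, 20553 and 23677. The groups overlapped for both, with log2 fold changes of 0.23 ± 0.19 and 0.05 ± 0.25 (limma adjusted p = 0.380 and 0.897). MT-RNR2 passed without 30 h replicate B, its highest library of that group (log2 fold change of 0.42).

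Nuclear copies of mtDNA can take mitochondrial reads. MTATP6P1, such a copy, held 4875 to 5643 normalised counts at 30 h and 5482 to 6403 at 72 h, and MT-ATP6 was 5.68 to 5.78 times as high in all 6 libraries. MTND2P28 held 698 to 851 and then 900.0 to 1138 and rose with MT-ND2 by 0.37 ± 0.10 (limma adjusted p = 0.0140), though not when 30 h or 72 h replicate A was left out. MT-ND2 stood at 22.2 to 24.9 times its count. Of 392 such pseudogene rows, 348 had no read and 3 passed the filter.

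Per kilobase of exon, the mtDNA mRNAs other than MT-ND6 lay above each nuclear member at 30 h. The order at 30 h began with MT-CO2 (73883 ± 2468 normalised counts per kilobase), MT-CO3 (59325 ± 2721), MT-CO1 (51554 ± 2514) and MT-ND4 (50279 ± 3506), and the last pair did not differ beyond their spread. MT-ND6 was the lowest at 4004 ± 242, near NDUFS5, the highest nuclear member of complex I, at 3387 ± 275. The highest nuclear member of all was ATP5B, the catalytic beta subunit now named ATP5F1B, at 4336 ± 157. MT-ND6 and ATP5B did not differ beyond their spread, but with the longest transcript as the length ATP5B stood at 5474. In complex I the median over mtDNA members was 16998 and over nuclear members 188, in complex III 22910 and 347, in complex IV 59325 and 523, and in complex V 33666 and 402. The nuclear medians were 325, 692, 812 and 633 when the longest transcript was taken as the length. Nuclear members of complex II had a median of 175.

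Among nuclear complex I members 36 of 37 were tested, and 1 rose (2.78%, against 23.6% of all genes) and 8 fell (22.2%, near the 25.0% of all genes). Without both letter C libraries 3 rose, NDUFB4 and NDUFS5 joining NDUFB10, and 8 fell. Without 30 h replicate C alone, NDUFB4 joined NDUFB10 and 2 rose. Without 72 h replicate B alone, 2 rose as well, NDUFB10 and NDUFV2, a gene of low and uncertain counts. NDUFB10, an accessory subunit of the membrane arm (chromosome 16, 1959508 to 1961975), was at 880.3, 868 and 921 normalised counts at 30 h and at 1129, 1216 and 1015 at 72 h. The groups did not overlap, and the rise was 0.33 ± 0.07 (SE; limma adjusted p = 0.00427). The largest fall was that of NDUFA12, an accessory subunit that joins the peripheral arm late in assembly (chromosome 12, 94897055 to 95003770). It was at 375, 429 and 383 at 30 h and at 287, 279.9 and 278 at 72 h, with the libraries of 72 h within 10 counts of each other and all below those of 30 h. The change was -0.49 ± 0.08 (SE), 0.714 times the level at 30 h (limma adjusted p = 0.000920).

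NDUFS7, a core subunit whose iron-sulfur cluster passes electrons to ubiquinone, was at 376, 392 and 329 and then at 265, 299.9 and 259, a fall of 0.41 on the log2 scale (-0.41 ± 0.10, limma adjusted p = 0.00620). Exons of other genes on the opposite strand cover 49.1% of its exonic length, so part of its reads is uncertain. NDUFS4, an accessory subunit of the NADH-oxidising end, was at 565, 615 and 537 and then at 493, 474 and 402 (-0.33 ± 0.09, adjusted p = 0.0141 in limma), and its call was lost without 30 h replicate B. NDUFC2, in the membrane arm, fell from 518 ± 39.6 to 415 ± 25.1 (-0.32 ± 0.08, limma adjusted p = 0.00959), and NDUFB3 from 466 ± 12.8 to 378 ± 6.89 (-0.30 ± 0.07, limma adjusted p = 0.00500). A same-strand readthrough gene covers 76.9% of the coding bases of NDUFC2 and had 0 reads in each library. How shared reads were counted was not given, so the level of NDUFC2 is uncertain.

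The other falls of complex I were NDUFB6 (-0.30), NDUFS6 (-0.28) and NDUFB2 (-0.23), with limma adjusted p of 0.0101, 0.0245 and 0.0394. NDUFS6 and NDUFB2 lost their calls in 6 and 9 of the 19 alternatives, including the authors' deposited table. For NDUFS6 these were without 30 h replicate A or C, without 72 h replicate A or C, and without both letter C libraries. For NDUFB2 they were without 30 h replicate A or B and without each library of 72 h. BRAF and NDUFB2-AS1 on the opposite strand cover 35.1% of the exons of NDUFB2.

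By symbol in complex I, of the 11 NDUFS and NDUFV members, which include the electron-carrying core, 0 rose and 3 fell (27.3%). Of those falls NDUFS7 is a core subunit, while NDUFS4 and NDUFS6 are accessory. The symbols are therefore no split into core and accessory subunits. Of 25 tested NDUFA, NDUFB and NDUFC members, which are accessory apart from NDUFA4 of complex IV, 1 rose and 5 fell (20%). Both shares of falls by symbol are near the 25.0% of all genes. The core subunits NDUFS1, NDUFS3, NDUFS8 and NDUFV1 did not pass, though NDUFV1 fell without 30 h replicate C (-0.21) and without both letter C libraries (-0.23). NDUFS1, which carries iron-sulfur clusters, was at 2297 ± 66.3 and 2196 ± 100.3. NDUFA9 and NDUFB8, both at about 200 counts in each group (189.99 ± 14.8 and 184 ± 9.75 for NDUFA9, 209 ± 5.18 and 193 ± 17.7 for NDUFB8), share 67.9% and 85.2% of their coding bases with a same-strand gene that had 0 reads. NDUFV2, the partner of NDUFV1, was counted at 11.7, 10.2 and 14.8 and then 25.5, 12.2 and 21.0 normalised counts, and NDUFA13 at 14.0 to 19.5. Neither passed, though NDUFV2 did so without 72 h replicate B. GENCODE 29 places other genes of the same strand over 84.7% of the coding bases of NDUFV2 and 55.2% of those of NDUFA13. NDUFA7, with 78.3% shared, held 1.95 to 6.13 counts and did not enter the test. The same-strand genes of NDUFV2 and NDUFA7 had 0 reads in each library too. A partner at 0 reads thus does not show that a member was fully counted. The levels of NDUFA9, NDUFB8, NDUFV2, NDUFA13 and NDUFA7 are therefore uncertain.

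Complex II had no call among its 4 tested members. SDHA, the flavoprotein, was at 1327, 1343 and 1392 normalised counts at 30 h and at 1305, 1326 and 1251 at 72 h, all lower but by 0.07 on the log2 scale (-0.07 ± 0.05, limma adjusted p = 0.341). SDHB, the iron-sulfur protein, was at 994 ± 48.5 and 1034 ± 55.3. The membrane anchors SDHC and SDHD were at 814 ± 46.3 and 834 ± 53.2, and at 537 ± 23.1 and 501 ± 12.6. The 4 changes lay between -0.10 and 0.06. A second row with the symbol SDHD, a readthrough gene, had no read. This readthrough gene covers 47.7% of the coding bases of SDHD, so the level of SDHD is uncertain.

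Complex III had no call among its 9 nuclear members either, and each of their 95% intervals lay within 1.5-fold. The core proteins UQCRC1 and UQCRC2 were at 2328 ± 62.6 and 2133 ± 72.3 (-0.13 ± 0.05, limma adjusted p = 0.0694) and at 1810.4 ± 52.4 and 1848 ± 50.9 (0.03 ± 0.05). UQCRFS1, the Rieske iron-sulfur protein, was at 961 ± 12.5 and 928 ± 25.5. UQCRH, the hinge protein next to cytochrome c1, was at 1388 ± 67.3 and 1352 ± 99.0, and UQCRHL, its near-identical copy, at 100.05 ± 12.6 and 91.5 ± 3.82, with reads that cannot be told apart where the copies match. UQCRB was at 1573 ± 63.0 and 1573 ± 105, UQCRQ at 905 ± 35.2 and 980.1 ± 43.8, and UQCR10 at 686 ± 31.3 and 660.1 ± 85.2. UQCR11 had the highest change of the complex, 0.24 ± 0.10 (341, 339 and 332 counts at 30 h, 346, 403 and 452 at 72 h), which passed without 72 h replicate A and with quantile normalisation but not otherwise (limma adjusted p = 0.0732). A same-strand gene that had 0 reads in each library covers all coding bases of UQCR11, and the level of UQCR11 is therefore uncertain.

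In complex IV, 10 of 14 nuclear members were tested, 1 rose and 1 fell, against 23.6% and 25.0% of all genes. COX7B also rose without both letter C libraries and without 30 h replicate C alone. COX5B, a zinc-binding subunit on the matrix side (chromosome 2, 97646040 to 97648383), was at 607, 558 and 554 normalised counts at 30 h and at 757, 789 and 707 at 72 h. It had the largest rise of any nuclear member past the test, 0.39 ± 0.07 (SE; 1.31-fold, limma adjusted p = 0.00134), with no overlap between groups. COX8A, the smallest membrane subunit, was at 1081, 1073 and 989 and then at 801, 929 and 872, a change of -0.27 ± 0.07 (limma adjusted p = 0.00961). A same-strand gene with 0 reads covers 55.1% of the coding bases of COX8A, and the level of COX8A is therefore uncertain. COX5A, which binds next to COX5B, was at 1023 ± 50.8 and 1072 ± 58.3 (0.07 ± 0.06, limma adjusted p = 0.426). NDUFA4, named for complex I but a subunit of complex IV, was at 1462 ± 53.9 and 1442 ± 32.1, and moving it between complexes changed no count of calls.

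Where complex IV has isoforms of different tissues, the libraries held the widespread form. COX6A1 was at 379 ± 16.1 and 369 ± 11.02 while COX6A2, the muscle form, had no read. A same-strand gene with 0 reads covers 53.5% of the coding bases of COX6A1, so the level of COX6A1 is uncertain. COX6B1 was at 1082 ± 43.7 and 1131 ± 31.7 against at most 2.04 for COX6B2, whose coding bases all lie under a same-strand gene, so that its level is uncertain. COX7B was at 916 ± 40.0 and 1016 ± 55.7 against 0 for COX7B2. COX7A2 was at 1351 ± 55.5 and 1480 ± 41.9 while COX7A1, the muscle form, held 6.33 to 13.2 and 7.34 to 18.3. COX8C had at most 1 read in a library. Outside the name patterns, COX4I1, the largest nuclear subunit of complex IV, was at 2676, 2677 and 2712 and then at 2979, 3061 and 2994, a rise of 0.16 ± 0.05 (limma adjusted p = 0.0163), and its hypoxia-linked isoform COX4I2 was at 0. The call of COX4I1 was lost without 30 h replicate A, 30 h replicate B or 72 h replicate B. NDUFA4L2, the hypoxia-linked relative of NDUFA4, was at 4.35 ± 1.97 and 2.39 ± 3.41 and not tested.

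In complex V, 17 of 20 nuclear members were tested, and 1 rose (5.88%, against 23.6% of all genes) and 5 fell (29.4%, near the 25.0% of all genes). Without both letter C libraries 2 rose and 6 fell, with ATP5I and ATP5G1 added. The falls numbered 2 without 30 h or 72 h replicate A and 3 without 30 h replicate B or 72 h replicate C. The rise was lost without 30 h replicate A, 72 h replicate A or 72 h replicate B, and 2 rose without 72 h replicate C. The current symbol follows each symbol of the table. ATP5S (DMAC2L) and ATP5SL (DMAC2), counted among the 17 tested, are not structural subunits and did not pass. ATP5C1 (ATP5F1C), the gamma subunit of the central stalk (chromosome 10, 7788129 to 7807815), was at 2252, 2206 and 2184 normalised counts at 30 h and at 1909.9, 1819 and 1792 at 72 h. The groups lay well apart, and the change was -0.27 ± 0.05 (SE; limma adjusted p = 0.00189). ATP5F1 (ATP5PB), the b subunit of the peripheral stalk, was at 2071, 2092 and 2086 and then at 1745, 1889.5 and 1631 (-0.25 ± 0.06, limma adjusted p = 0.00755). ATP5G3 (ATP5MC3), which encodes the c subunit of the rotor ring, was at 2496, 2263 and 2159.8 and then at 1885, 2061 and 1945 (-0.23 ± 0.07, limma adjusted p = 0.0157). The call of ATP5G3 was lost without 30 h replicate A or 72 h replicate A.

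ATP5E (ATP5F1E), the epsilon subunit of the central stalk, and ATP5A1 (ATP5F1A), the alpha subunit of the head, changed by -0.17 ± 0.06 and -0.15 ± 0.05 (limma adjusted p = 0.0276 and 0.0379). ATP5A1 was at 6515 ± 304 and 5851 ± 104, and ATP5E at 2060 ± 80.0 and 1829.6 ± 69.5. Their groups did not overlap, but the calls were lost in 9 and 8 of the 19 alternatives, among them DESeq2, the authors' deposited table and scaling to nuclear-gene reads. For ATP5A1 these include 30 h replicates A and B and each library of 72 h left out in turn, and for ATP5E 30 h replicates A and B and 72 h replicates A and C. TUBB1 on the opposite strand covers 23.2% of the exons of ATP5E. ATP5B, the beta subunit that alternates with alpha in the head, was at 10301, 10255 and 9646 and then at 9409, 10017 and 9622, with overlapping groups (-0.06 ± 0.05, limma adjusted p = 0.424).

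ATP5H (ATP5PD), the d subunit of the peripheral stalk, rose while its partner b fell. It was at 1457, 1582 and 1349 normalised counts at 30 h and at 1735, 1726 and 1647 at 72 h, with no overlap (0.22 ± 0.07, limma adjusted p = 0.0187). It did not pass when 30 h replicate A, 72 h replicate A or 72 h replicate B was left out, with adjusted p of 0.00655 to 0.0705 over the alternatives, and exons on the opposite strand (KCTD2 among them) cover 19.1% of its exons. The remaining stalk subunits ATP5J (ATP5PF) and ATP5O (ATP5PO) did not pass, at 1014 ± 38.6 and 978 ± 25.2 and at 409 ± 37.6 and 378 ± 29.3. A same-strand gene with 0 reads covers 62.6% of the coding bases of ATP5O, so the level of ATP5O is uncertain.

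The c subunit of the rotor ring is made from ATP5G1, ATP5G2 and ATP5G3 (ATP5MC1, ATP5MC2 and ATP5MC3), which encode the same mature protein. ATP5G1 was at 575 ± 38.6 and 527 ± 28.1 and ATP5G2 at 1093 ± 73.5 and 1067 ± 68.0, neither past the test. ATP5G1 fell without both letter C libraries (-0.20). ATP5G2 per ATP5G3 count was 0.472, 0.469 and 0.481 in A, B and C at 30 h and 0.536, 0.554 and 0.538 at 72 h, with no overlap. ATP5G1 per ATP5G3 count was 0.236 to 0.268 and 0.262 to 0.279, with overlap. No test was made of these ratios.

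**Figure D4:**
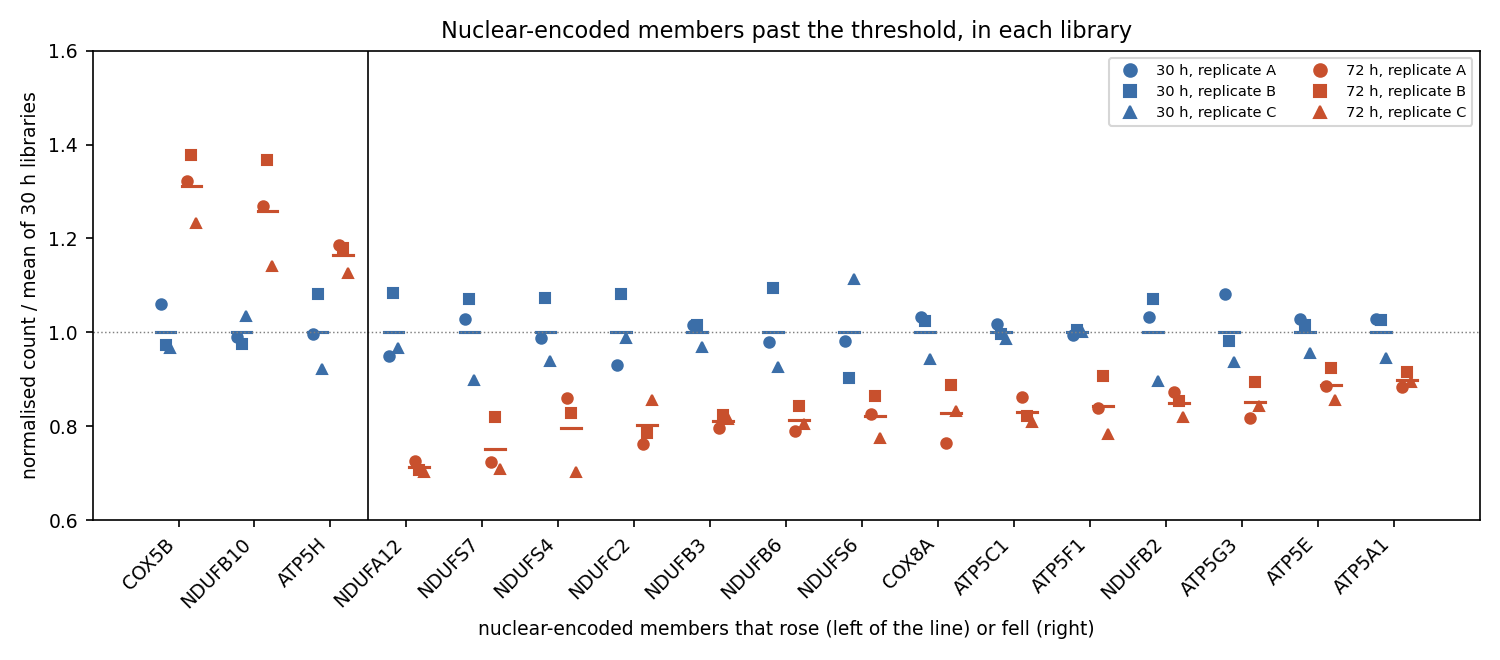
Normalised count in each library divided by the gene's mean over the 3 libraries of 30 h (vertical axis), for the 3 nuclear members that rose (left of the line) and the 14 that fell (right). Short lines are group means and symbols the replicate letters. For each of these 17 genes the points of 72 h and 30 h do not overlap, which is also the case for 59.2% of all tested genes.

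Promoters of the nuclear members are known to carry sites for NRF1, for the ETS factor GABP and for YY1. The window from 250 bases before to 50 after the RefSeq start (GRCh38.p14) was found for 60 of the 76 tested nuclear members and searched on both strands for CGCANGC (core of the NRF1 motif), CCGGAAG (ETS) and AAGATGG (start of the YY1 motif). Matches were allowed to overlap. NRF1 letters were in 29 of the 60 (48.3%), against 19.9% of 35116 promoters in the table and 33.4% of the 10204 promoters of tested genes. ETS letters were in 18 (30.0%, against 10.3% and 19.96%), and YY1 letters in 15 (25.0%, against 5.84% and 7.77%). Among the 12 members that fell and had a window, 5 held NRF1, 1 held ETS and 4 held YY1 letters. Among the 3 that rose, 1 held NRF1, 2 held ETS and 0 held YY1 letters. NRF1 letters were in 11 of 30 promoters of complex I, 3 of 3 of complex II, 5 of 7 of complex III, 3 of 8 of complex IV and 7 of 12 of complex V. A match is only these letters, not a bound site.

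Promoters of 4 members, each the 150 bases next to the start of the GENCODE 29 gene, are shown with matches in capitals. NDUFA12 had the largest fall, COX5B and ATP5H rose, and SDHA, which did not pass the test, holds the NRF1 letters more than once.
NDUFA12 (chr12:95003771-95003920, minus strand): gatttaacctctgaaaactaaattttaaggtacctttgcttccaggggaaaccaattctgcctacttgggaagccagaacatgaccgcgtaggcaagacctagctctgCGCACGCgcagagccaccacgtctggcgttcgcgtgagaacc
SDHA (chr5:218091-218240, plus strand): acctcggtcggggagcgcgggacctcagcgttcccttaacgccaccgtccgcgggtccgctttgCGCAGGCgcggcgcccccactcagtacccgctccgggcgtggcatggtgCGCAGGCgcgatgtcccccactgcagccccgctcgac
COX5B (chr2:97645890-97646039, plus strand): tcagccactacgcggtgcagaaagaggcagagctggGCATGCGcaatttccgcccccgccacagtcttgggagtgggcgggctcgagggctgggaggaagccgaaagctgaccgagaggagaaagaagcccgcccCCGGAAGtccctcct
ATP5H (chr17:75046986-75047135, minus strand): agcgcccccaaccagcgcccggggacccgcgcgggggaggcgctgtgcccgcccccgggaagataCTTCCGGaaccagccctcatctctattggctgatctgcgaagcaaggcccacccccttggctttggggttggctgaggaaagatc

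Of 16 tested regulators of nuclear-encoded mitochondrial genes, 5 rose (31.3%, against 23.6% of all genes) and 0 fell (against 25.0%). PPARGC1A, the coactivator PGC-1alpha, was at 13.6, 16.3 and 13.7 normalised counts at 30 h and at 66.4, 60.2 and 77.6 at 72 h, a log2 rise of 2.15 ± 0.20 (SE; limma adjusted p = 2.5e-05) at a low level. ESRRA, the nuclear receptor ERRalpha that works with it, was at 363, 368 and 317 and then at 517, 576 and 454 (0.56 ± 0.10, limma adjusted p = 0.00142). HIF1A, the hypoxia factor, rose by 0.63, RXRA by 0.28 and GABPA, the ETS subunit of GABP, by 0.28. NRF1 was at 236, 204 and 201 and then at 212, 192 and 188, with overlapping groups (-0.12 ± 0.10, limma adjusted p = 0.389).

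Of the 16 factors of mtDNA transcription and replication, 6 rose and 3 fell, so that 56.3% were called, near the 48.6% of all genes. POLRMT, the mitochondrial RNA polymerase, was at 367, 328 and 332 normalised counts at 30 h and at 437, 555 and 489.8 at 72 h (0.52 ± 0.10, limma adjusted p = 0.00164). TFAM, which packages mtDNA and starts transcription, was at 724, 736 and 619 and then at 874, 819 and 803 (0.27 ± 0.08, limma adjusted p = 0.0180). Without 72 h replicate A TFAM did not pass (0.23). TWNK, the mtDNA helicase, TOP1MT, TFB2M and MTERF1 were the other rises. Falls were those of PRIMPOL, a primase, by 0.77, of MGME1, an exonuclease of mtDNA, by 0.69 and of TFB1M, which methylates the small rRNA, by 0.59. Of 18 factors of mitochondrial RNA processing, stability and decay, 6 rose and 3 fell (50% called, also near that share). Rises included LRPPRC, which stabilises mtDNA mRNAs (2314, 2347 and 2275, then 3069, 3141 and 2767; 0.37 ± 0.06, limma adjusted p = 0.000702), FASTKD5 (0.44), SUPV3L1, a helicase of RNA decay (0.42), and TRMT10C, a part of mitochondrial RNase P (0.41). REXO2, which degrades short RNA remnants, fell from 1000.2 ± 71.9 to 653 ± 20.9 (-0.61 ± 0.07, limma adjusted p = 8.3e-05).

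**Figure D5:**
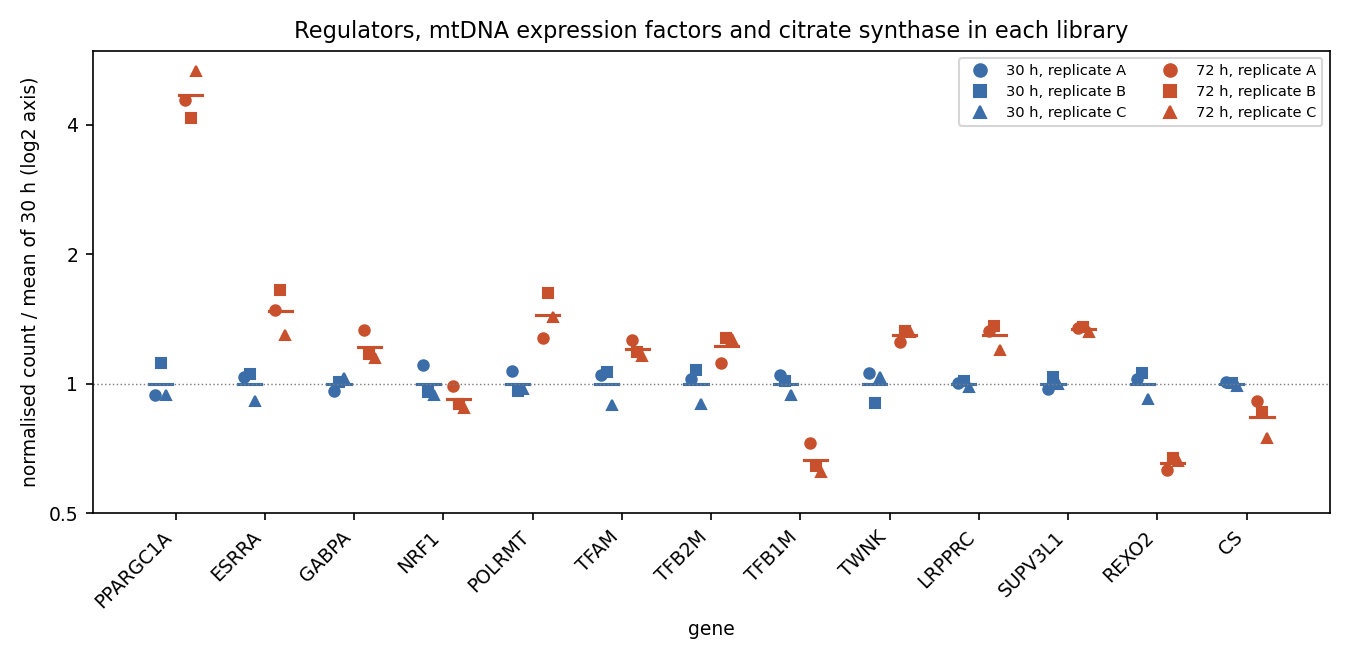
Normalised count in each library divided by the gene's mean over the 3 libraries of 30 h (log2 axis), for regulators of mitochondrial genes, factors of mtDNA expression and citrate synthase. Short lines are group means. PPARGC1A rose by 2.15 on the log2 scale, REXO2 fell from 1000.2 to 653 normalised counts, and NRF1 overlaps between groups.

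Assembly factors were called in these shares, against 48.6% of all genes: 31.3% of those for complex I, 37.5% for complex IV, 20% for complexes II and III and 0% for complex V. Of 16 tested for complex I, 2 rose and 3 fell, with NUBPL, which delivers iron-sulfur clusters, at -0.59 ± 0.10, COA1 at -0.53 ± 0.06, NDUFAF2 at -0.35 ± 0.12 and TMEM186 at 0.48 ± 0.16 (log2 fold change ± SE). NDUFAF2, a paralogue of NDUFA12 that holds its place during assembly, was at 219, 209 and 186 normalised counts and then at 169, 174 and 139.5, below the earlier group in each library as NDUFA12 was. The calls of NDUFAF2 and TMEM186 were lost in DESeq2, in the authors' deposited table and without several single libraries (30 h replicate A or B or 72 h replicate A or C for NDUFAF2, and 30 h replicate B or C or 72 h replicate A or B for TMEM186). Of 24 for complex IV, 4 rose and 5 fell, with COX20, which guides MT-CO2 into the membrane, at -0.71 ± 0.08 (838, 905 and 752 counts, then 516, 502 and 507; limma adjusted p = 6.4e-05), CMC2 at -0.52 ± 0.09, SURF1 at 0.39 ± 0.11 (not called in the authors' deposited table) and HIGD2A at 0.37 ± 0.08. Of 10 for complexes II and III, SDHAF1 (0.51 ± 0.14, not called in DESeq2 or the authors' deposited table) and SDHAF2 (0.32 ± 0.12) rose and 0 fell. The call of SDHAF2 held without 30 h replicate C but not without any other single library. Of 5 for complex V, 0 passed.

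Of 24 tested genes of the pyruvate dehydrogenase and citrate cycle, which feed electrons to complexes I and II, 4 rose and 7 fell (45.8% called, near the 48.6% of all genes). FH, fumarase, which acts on the product of complex II, was at 1347, 1354 and 1209.6 normalised counts at 30 h and at 775, 837 and 788 at 72 h (-0.70 ± 0.07, limma adjusted p = 2.5e-05). SUCLG1, which makes the substrate of complex II, fell by 0.66, PC, pyruvate carboxylase, by 0.59 and PDP1, a phosphatase that activates pyruvate dehydrogenase, by 0.52. CS, citrate synthase, fell from 2386 ± 26.0 to 2000.3 ± 196 (-0.26 ± 0.07, limma adjusted p = 0.0130). PDK1, the kinase that inhibits pyruvate dehydrogenase, rose by 0.32 ± 0.10, a call lost without both letter C libraries (0.17). Of 7 tested carriers and pores, 0 rose and 4 fell (57.1%, against 25.0% of all genes): SLC25A4, an ADP/ATP carrier (-0.55 ± 0.11), UCP2 (-0.92 ± 0.29), VDAC3 of the outer membrane (-0.35 ± 0.06) and the phosphate carrier SLC25A3 (-0.22 ± 0.06). The call of UCP2 was lost when 30 h replicate A or B or any library of 72 h was left out, and that of SLC25A3 without 30 h replicate B. Cytochrome c, CYCS, rose by 0.19 ± 0.07 (limma adjusted p = 0.0466) with overlapping groups, a call lost in DESeq2, in the authors' deposited table and without each library other than 72 h replicate C, and cytochrome c1, CYC1, was at 1023 ± 58.7 and 1093 ± 71.8.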

How the data were processed

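Processing, per the submitters' processing notes, used Trimmomatic 0.35, STAR 2.5.1b with GRCh38 (hg38), and DESeq2 1.18.1. Counter, annotation and strand setting: not given in the sources used here. Each value deposited by the authors is a signal, namely reads over the size factor of its library. Per the file headers the table also has the authors' log2 fold change, its standard error, a Wald score, a p-value and an adjusted p-value, which enter the text only under the name of that table.

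In each library 100% of the signal values were whole multiples, within 0.01, of the value of 1 read, which gave back the reads and totals of 13221152 to 15703544. Genes reaching 10 normalised counts in 3 libraries or more were tested on log2(value + 1) with limma 3.58.1 (trend, robust; R 4.3.3), Benjamini-Hochberg adjusted over 13315 genes, threshold 0.05. Fold changes on this scale understate those of low genes. Steps were tested on simulated data. PCR duplicates are counted as reads. Alternatives were edgeR 4.0.16 and DESeq2 1.42.0 on the recovered reads, other pseudocounts, filters and scalings, a replicate block, and each library left out. The number of per-sample columns left out was 0.

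Members, lists and tests were chosen with earlier results of these data known. Named genes are all mtDNA, SDH and UQCR members, in complexes I, IV and V up to 5 called nuclear members in each direction with a mean of at least 50, paralogue sets, up to 4 called members of each list and 13 fixed regulators and markers. Members named beyond this (NDUFB6, NDUFS6, NDUFB2, those with low counts or shared exons, COX5A, ATP5B and the stalk subunits, and further list members) were chosen after the values were seen. All 98 identifiers were in GENCODE 29, 95 with the same coordinates, which gave lengths and overlaps. Promoters are from RefSeq. The values of 1 member are not reported here.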

Additional observations from a re-analysis of the deposited data

How the results depend on the processing

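Over 19 alternatives, 14 of the 26 called members kept their call in each, 50 of the 63 not called stayed uncalled in each, and 0 called values changed sign. The median log2 fold change ran from 0.20 to 0.33 for mtDNA members and from -0.06 to -0.01 for nuclear members, while that of all genes moved by less than 0.1. Rises among mtDNA members numbered 5 with quantile normalisation and 5 to 10 with a library left out (5 without 30 h replicate A, 30 h replicate B or 72 h replicate A), and falls 0 to 1. Rises among nuclear members numbered 7 with quantile normalisation, 5 with scaling to nuclear-gene reads, 7 without both letter C libraries (an alternative chosen after seeing the data) and 2 to 5 with a library left out, and falls 9 to 14 (9 without 30 h or 72 h replicate A). For complex I, rises numbered 2 with a filter at 50, 3 with quantile normalisation, 3 with nuclear scaling, 3 without letter C, and 1 to 2 with a library left out. Rises in complex III were 1 with quantile normalisation and 0 to 1 with a library left out. In complex IV they were 2 with quantile normalisation, 2 without letter C and 1 to 2 with a library left out. In complex V they were 2 without letter C (6 falls) and 0 to 2 with a library left out, and falls were 3 with quantile normalisation, 3 with nuclear scaling, 3 in DESeq2, 3 in the authors' deposited table and 2 to 5 with a library left out. Why these counts moved was not tested, other than that settings with a library left out hold fewer samples. The replicate letters were not taken as pairs, since libraries of 1 letter correlated at 0.00696 (A), 0.172 (B) and 0.185 (C) after removal of group means. With the letter as a replicate block 8 mtDNA members rose, 4 nuclear members rose (2 of complex I) and 14 fell. With 3 libraries per group, a member that did not pass may still have changed by an amount inside its plotted 95% interval.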
